A study of Mus musculus with 8 samples.

Results

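The genes described here encode the machinery of oxidative phosphorylation, measured in microglia of the mouse hippocampus 4 h after interleukin-33 (IL-33) or saline. They were taken from the 55471 rows of the deposited table by symbol: the prefixes Nduf a, b, c, s or v (complex I), Sdha to Sdhd (complex II), Uqcr (complex III), Cox4 to Cox8 followed by a, b or c (complex IV), Atp5 (complex V), and the mitochondrial symbols mt-Nd, mt-Co, mt-Atp and mt-Cyt. The pattern matched 120 rows, and dropping 11 with a pseudogene suffix left 109 members, 96 encoded in the nucleus and 13 in the mitochondrial genome. The nuclear set divides into 39 complex I genes, 8 complex I assembly factors (Ndufaf), 4 of complex II, 8 of complex III, 19 of complex IV (Ndufa4 and Ndufa4l2 counted here) and 18 of complex V. It includes 4 rows that the annotation lists as processed pseudogenes, Cox6c2, Ndufa11b, Ndufb4c and Ndufs6b. Cox4i1 lies outside the pattern and was not analysed here.

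Both groups were C57/Bl6 mice at P30 with no altered allele named, and each group comprised 2 females and 2 males. One group received IL-33, a cytokine sensed by microglia through the receptor ST2 (replicates 1 to 4), the other phosphate-buffered saline, PBS (replicates 5 to 8). After perfusion, microglia were collected from the dissected hippocampi by flow sorting as CD45lo/CD11B+/Ly-6C- cells, and libraries were made with the QuantSeq FWD kit, which reads the ends of polyadenylated transcripts. Because a transcript yields about the same signal whatever its length, levels of different genes are set side by side here as normalised read counts without a length correction. Such a comparison does not account for shared transcript ends or for differences in polyadenylation between genes, which were not measured. The labels do not say whether every library came from its own animal. The p-values below therefore set each group difference against the spread between libraries, part of which may be technical.

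In oxidative phosphorylation, complexes I and II pass electrons from NADH and succinate to coenzyme Q, complex III hands them to cytochrome c, and complex IV to oxygen. Complexes I, III and IV pump protons across the inner membrane, and ATP synthase, complex V, lets them flow back to make ATP. Most subunits are made from nuclear genes, whereas the core membrane subunits of complexes I, III, IV and V come from mitochondrial DNA, which is transcribed as long precursors that are cut into the individual RNAs. Microglia use both respiration and glycolysis, and inflammatory stimulation of macrophages is known to shift the balance between them.

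Libraries held 16.83 M to 21.48 M reads, and from 7958 to 11902 genes reached 10 reads. The microglial markers were abundant in every library, with a summed level of 540792 to 826805 after IL-33 and 648752 to 897523 after PBS. Csf1r, P2ry12 and Sall1 fell, so 3 of 10 microglial markers were called lower, against 2.8% of all tested genes. Among genes with a mean of at least 1000, 19.3% were called in either direction. All 6 neutrophil and all 6 lymphoid markers had no reads in any library. The 6 astrocyte markers summed to 5289 to 8506 after IL-33 and 2492 to 5444 after PBS, the 6 oligodendrocyte markers to 2889 to 4955 and 1960 to 3458, and the 6 monocyte markers to 123 to 509 and 6.82 to 161, with Aldh1l1, Cspg4 and Chil3 of these lists at 0. The 5 erythroid markers summed to 3.12 to 315 after IL-33 and 0.822 to 4216 after PBS, the neuronal markers to 50.3 to 1886 and 218 to 843, and no gene of these other lists was called. The part of these cells in the results below was not tested. In bulk RNA, fewer cells of a type and less RNA per cell cannot be told apart.

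The mitochondrially encoded set was measured unevenly. Of its 13 protein-coding genes 8 were above the minimum mean of 10, while mt-Co2, mt-Co3, mt-Atp6, mt-Atp8 and mt-Nd4l had no reads in any of the 8 libraries, a count that allows up to 2.20 to 3.12 normalised counts per library (3 reads, counting error only). These genes encode core subunits of complexes IV, V and I that a respiring cell cannot do without. The last 60 annotated bases of several of these genes are shown because the assay reads transcript ends and because most of them occur again elsewhere in the annotation. They come from the GENCODE M21 transcripts (GRCm38, + strand, 5′ to 3′). Capitals mark bases in a stretch of 20 bases also present in a transcript of another gene, or in its reverse complement. The first 3 have no reads, mt-Nd3 has few, and mt-Co1, mt-Cytb and mt-Nd1 have many.
mt-Co2, chrM:7637-7696: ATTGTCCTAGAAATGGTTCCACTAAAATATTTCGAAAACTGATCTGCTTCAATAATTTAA
mt-Co3, chrM:9331-9390: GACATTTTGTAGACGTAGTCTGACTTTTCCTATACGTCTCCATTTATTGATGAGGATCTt
mt-Atp6, chrM:8548-8607: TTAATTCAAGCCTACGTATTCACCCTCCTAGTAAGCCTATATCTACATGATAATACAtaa
mt-Nd3, chrM:9747-9806: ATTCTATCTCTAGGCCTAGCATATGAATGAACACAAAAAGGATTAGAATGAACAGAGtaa
mt-Co1, chrM:6813-6872: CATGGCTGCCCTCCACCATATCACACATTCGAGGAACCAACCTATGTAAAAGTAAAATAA
mt-Cytb, chrM:15229-15288: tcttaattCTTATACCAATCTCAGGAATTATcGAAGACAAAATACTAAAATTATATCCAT
mt-Nd1, chrM:3648-3707: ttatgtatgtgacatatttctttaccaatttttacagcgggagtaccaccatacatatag

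Over the last 300 bases, the share of 50-base stretches found in a transcript of another gene at a different place was 100% for mt-Co1 and mt-Co2, 99.6% for mt-Co3 and 98.8% for mt-Atp6, mt-Nd3 and mt-Nd4l. Here too, matches to the reverse complement of the other transcript were counted. The copies lie side by side on chromosome 1 as unprocessed pseudogenes: Gm10222 (chr1:24612407-24612700, matching mt-Nd4l), Gm28438 (chr1:24612775-24613119, mt-Nd3), Gm28437 (chr1:24613189-24613971, mt-Co3), Gm10925 (chr1:24613974-24614651, mt-Atp6), Gm28661 (chr1:24614885-24615565, mt-Co2) and Gm29216 (chr1:24615706-24616197, mt-Co1). The share was 31.9% for mt-Nd2, 2.0% for mt-Nd5 and 0% for mt-Nd1, mt-Nd4, mt-Nd6, mt-Cytb and mt-Atp8. Of the 6 mitochondrial members sharing at least 50% of their end 4 had no reads, against 1 of the 7 sharing less, mt-Atp8. The gene of mt-Atp8 overlaps that of mt-Atp6, which is among the 4. Overlap with a neighbouring gene was not compared for mt-Co2, mt-Co3 and mt-Nd4l, and its part in the zeros was not tested.

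Sharing did not go with an absence of reads in every gene. The end of mt-Co1 is shared completely, yet its mean over the 8 libraries was 8060, and mt-Nd3 averaged 284. These chromosome 1 pseudogenes had few reads, at most 79.5 for Gm29216, 96.5 for Gm28661, 97.4 for Gm28438, 40.3 for Gm10925 and 2.87 for Gm28437, and none for Gm10222. Copies on chromosome 2 had more: Gm13340, which holds 25.5% of the stretches of the mt-Co1 end, reached 1082, and Gm13341, which holds 14.3% of those of mt-Co2 and all of its 60 bases printed above, reached 370. How reads matching several places were counted is not given in the sources used here, and its part in the missing values was not tested. A zero for these genes is not read here as an absence of their RNA.

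Among the 92 protein-coding nuclear members, 5 shared at least 50% of their end with another gene, namely Atp5l (70.1%), Cox7c (65.2%), Atp5h (59.2%), Ndufs3 (53.0%) and Atp5g2 (52.6%). Their median level was 704, and that of the other 87 was 1575. For these 5 genes the level is uncertain, because reads could be split between copies. The ends of Cox5a, Ndufb6 and Uqcrc2 lie over another annotated gene (Gm26631, Smim27 and Pdzd9), and whether the counting used the strand is not given in the sources used here.

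**Figure D1:**
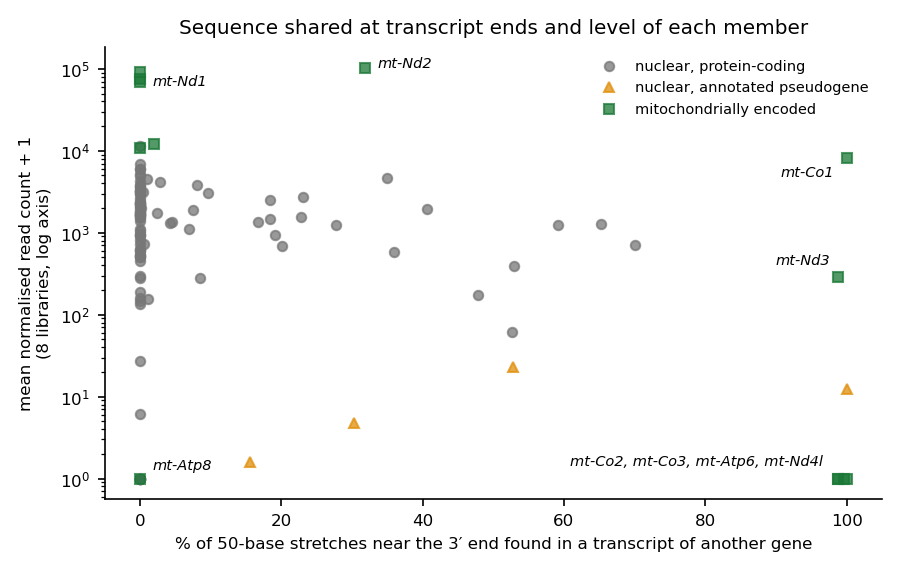
Each point is a member. The horizontal axis gives the percentage of 50-base stretches near its 3′ end that occur, on either strand, in a transcript of another gene. The log vertical axis gives its mean normalised read count plus 1 over the 8 libraries. Of the 6 mitochondrial genes at the right edge, 4 lie at 0 reads, while mt-Co1 averages 8060; mt-Nd2 and mt-Nd1 lie at the top.

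Of the mitochondrial genes with reads, the highest levels belonged to mt-Nd2, mt-Cytb, mt-Nd4 and mt-Nd1. The gene mt-Cytb (chrM:14145-15288) encodes cytochrome b, the mitochondrially made subunit of complex III. Of its last 60 bases, 51 lie in 20-base stretches shared with Gm43841, although none of its longer stretches was shared. How reads matching both genes were counted is not given in the sources used here, so the level of mt-Cytb carries this limit too. The normalised read counts of mt-Cytb were 71016, 88670, 92364 and 216994 after IL-33 and 78207, 66265, 40544 and 71632 after PBS. IL-33 replicate 4 lay far above the rest, and the lowest IL-33 library lay within the PBS range. The log2 fold change was 0.77 ± 0.26 (SE), with group means of 117261 ± 67138 and 64162 ± 16486 (SD, n = 4 each), and the adjusted p was 0.0875 in limma. Leaving out 1 library gave log2 fold changes from 0.42 (without IL-33 replicate 4, adjusted p = 0.178) to 0.96 (without IL-33 replicate 1, adjusted p = 0.0433), and over all alternatives the adjusted p ran from 0.0433 to 0.537.

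The gene mt-Nd1 (chrM:2751-3707) encodes a core membrane subunit of complex I near the site where coenzyme Q binds. Its counts were 59760, 61183, 67411 and 165679 after IL-33 and 64308, 43211, 38853 and 52124 after PBS. Again IL-33 replicate 4 stood far above the other 3, and the groups overlapped through PBS replicate 5. The log2 fold change was 0.71 ± 0.25 with an adjusted p of 0.101 in limma, and 0.36 without IL-33 replicate 4 (adjusted p = 0.206).

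For mt-Nd2 and mt-Nd4, which encode proton-pumping subunits of complex I, the spread within groups covered the difference. Counts of mt-Nd2 were 153363, 102559, 67448 and 50825 after IL-33 and 75426, 118380, 173158 and 89482 after PBS. Here IL-33 replicate 4 was the lowest of the 8 libraries, and the log2 fold change was −0.34 ± 0.27 (adjusted p = 0.510). Counts of mt-Nd4 were 98570, 47148, 52997 and 159609 against 51875, 52628, 89610 and 49945, with a log2 fold change of 0.42 ± 0.28 (adjusted p = 0.427), which was 0.08 without IL-33 replicate 4 and 0.67 without IL-33 replicate 2. In both genes the groups overlapped.

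The most even mitochondrial gene was mt-Nd5, another proton-pumping subunit of complex I, whose counts ran from 9997 to 13657 after IL-33 and from 9805 to 13800 after PBS. Its log2 fold change was −0.03 ± 0.21 with a 95% interval from −0.48 to 0.41. The gene mt-Nd6, the sole protein-coding gene on the opposite strand, ran from 4898 to 23125 and from 5980 to 13750, with a log2 fold change of 0.27 ± 0.38 that turned to −0.11 without IL-33 replicate 4. Its annotation overlaps that of mt-Nd5, so that without strand their reads cannot be told apart in the overlap.

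The remaining genes with reads, mt-Co1 and mt-Nd3, have ends shared with another gene for 100% and 98.8% of their stretches. The gene mt-Co1, the catalytic core of complex IV, had counts of 6254, 8590, 12423 and 4072 after IL-33 and 10598, 10195, 6745 and 5603 after PBS, a log2 fold change of −0.15 ± 0.32 that turned to 0.13 without IL-33 replicate 4. The small complex I subunit gene mt-Nd3 had 3.12, 57.5, 38.5 and 26.7 after IL-33 and 1867, 135, 61.6 and 85.0 after PBS. These groups do not overlap, but PBS replicate 5 was far above the other 3 PBS libraries, and the log2 fold change of −3.08 ± 1.73 had an adjusted p of 0.345.

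**Figure D2:**
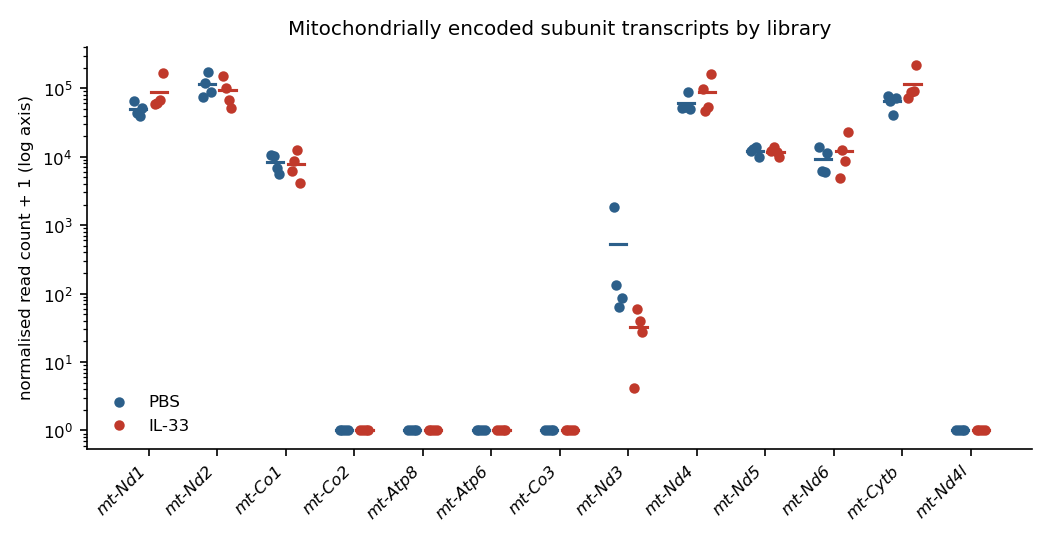
Normalised read counts plus 1, on a log axis, of the 13 mitochondrially encoded members in the order of the table, with a point for each of the 4 IL-33 (red) and 4 PBS (blue) libraries and the group mean as a bar. IL-33 replicate 4 is the highest library for mt-Cytb (216994), mt-Nd1 (165679) and mt-Nd4 (159609) and the lowest for mt-Nd2 (50825) and mt-Co1 (4072).

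Across both sets, 96 members (88 nuclear, 8 mitochondrial) had a mean of at least 10 and were tested. With limma, none of the 96 was called at an adjusted p under 0.05, while 5.85% of the 13877 genes tested were, 3.06% higher and 2.8% lower after IL-33. At an unadjusted p under 0.05 there were 14 members, or 14.6%, against 19.4% of all tested genes. Of the 14, 5 nuclear members were higher and 7 lower after IL-33, and mt-Cytb and mt-Nd1 were higher. With edgeR, 0 members were called, against 5.46% of all genes, and 12 had an unadjusted p under 0.05, against 20.8%. DESeq2, which called 12.1% of all genes, called 3 members, Ndufa9 and Atp5g2 lower and Cox7a1 higher, and gave no adjusted p for 4 others.

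Of the 13 members that were not tested, 10 had no reads: the 5 mitochondrial genes above, Cox7b2, Cox8b, Cox8c, Ndufa4l2 and a second row under the symbol Atp5o. The other 3, Sdhd, Ndufs6b and Ndufa11b, had a mean between 0.606 and 5.14. Sdhd encodes a membrane anchor of complex II, and its counts lay between 0 and 13.9 while the genes for the other complex II subunits averaged 1785 to 2938. No shared stretch was found at its annotated end.

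Low read numbers were not a general property of the members. A mean of at least 1000 was reached by 63 of them. In that range 19.3% of all genes were called and 38.3% had an unadjusted p under 0.05, against 0 and 10 members (15.9%). The groups did not overlap for 8 of these 63 members (12.7%), against 29.5% of all genes in that range. For all 96 the count was 11 (11.5%), against 13.7%.

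A missed threshold does not show equal levels, so the intervals are given as well. The 95% interval of the log2 fold change lay between −1 and 1 for 10 members: Cox6c, Cox7b, Cox8a, Sdha, Atp5a1, Ndufa10, Uqcrq, mt-Nd2, mt-Co1 and mt-Nd5. That is 10.4% of the tested members against 2.46% of all tested genes, and 15.9% against 11% at a mean of at least 1000. For 22 nuclear members the interval reached past a log2 change of 1 on both sides, so that neither a rise nor a fall of that size could be told from no difference.

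**Figure D3:**
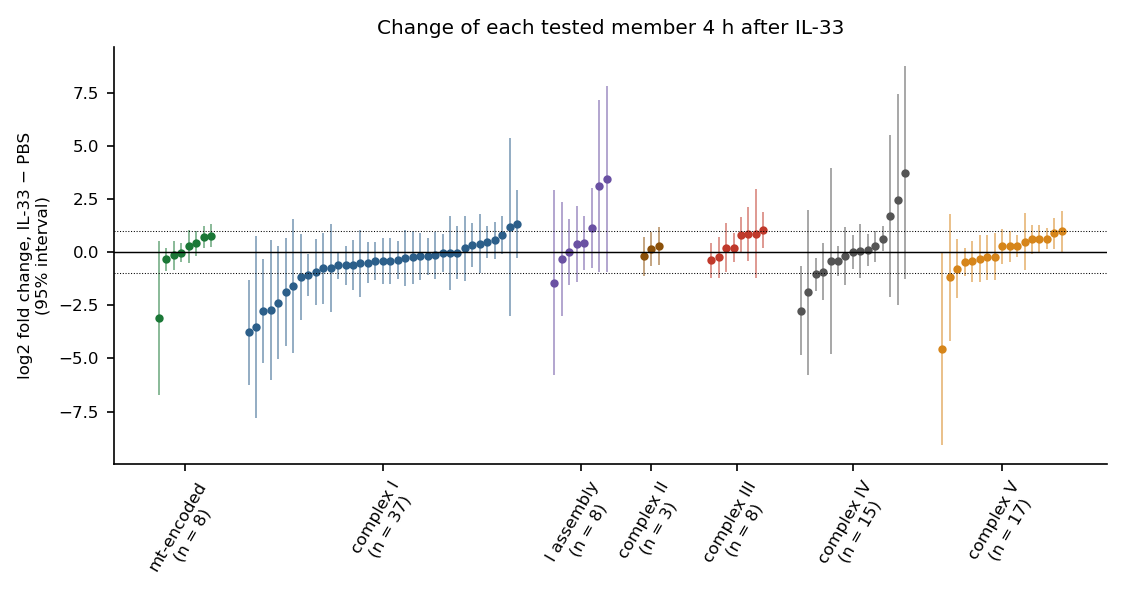
Log2 fold change (IL-33 minus PBS) of each of the 96 tested members with its 95% interval, grouped by complex and sorted within it; dotted lines mark −1 and 1. Of the 37 complex I genes 29 lie below 0 (most of all tested genes do as well), while the intervals of 22 nuclear members cross both dotted lines.

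Complex I had the most members below 0. Of its 37 tested nuclear genes 29 had a negative log2 fold change. The median was −0.42, beside −0.40 for all tested genes, most of which were thus negative too. For the complex I genes with a mean of at least 1000 the median was −0.39, beside 0.08 for all genes of that level. With 1 library left out the median ran from −0.59 (without IL-33 replicate 1) to −0.16 (without IL-33 replicate 4, with 24 of 37 negative). Without IL-33 replicates 3 and 4 it was 0.01 with 18 of 37 negative. With all libraries, edgeR and DESeq2 each gave 26 of 37 negative and a median of −0.24. The medians of all tested genes were then −0.08 and −0.09.

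Within complex I the gene with the smallest p was Ndufa9 (chr6:126821721-126849136), an accessory subunit of the arm that reaches into the matrix. It is named because its unadjusted p was under 0.05, so it was chosen after its values were seen, as were Ndufa5 and Ndufb6 below. Its counts were 89.4, 116, 3.95 and 255 after IL-33 and 876, 526, 737 and 1398 after PBS. Every IL-33 library was below every PBS library. Group means were 116 ± 104 and 884 ± 372, the log2 fold change was −3.78 ± 1.18, and the adjusted p was 0.0673 in limma, 0.113 in edgeR and 0.0132 in DESeq2. Leaving out 1 library gave log2 fold changes from −4.47 (without IL-33 replicate 4, adjusted p = 0.0150) to −2.58 (without IL-33 replicate 3, adjusted p = 0.0780), and over all alternatives the adjusted p ran from 0.0132 to 0.219.

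The most abundant nuclear complex I genes were Ndufa2, a small subunit of the NADH-oxidising part, and Ndufb5, a subunit of the membrane arm. Ndufa2 counts were 4639, 3535, 4443 and 2835 after IL-33 and 4797, 7027, 6879 and 5086 after PBS. All 4 IL-33 libraries were below the PBS libraries, the nearest by a small margin, and the log2 fold change was −0.63 ± 0.30 (adjusted p = 0.248). Ndufb5 ran from 2654 to 6935 and from 2182 to 4370, with a log2 fold change of 0.48 ± 0.36 (adjusted p = 0.491).

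Ndufa5, a subunit of the matrix arm, averaged 1490 ± 857 after IL-33 and 2768 ± 616 after PBS (log2 fold change −1.08 ± 0.47, adjusted p = 0.207). Ndufb6, of the membrane arm, averaged 238 ± 357 and 821 ± 652 (−2.78 ± 1.17, adjusted p = 0.191). For Ndufb6, whose end lies over another gene, IL-33 replicate 2 at 772 was within the PBS range, and the other 3 were between 12.4 and 86.2.

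The 8 assembly factors, which help build complex I without remaining in it, were read at lower levels, with means from 186 to 950. The median log2 fold change was 0.40, 6 were positive, and the smallest adjusted p was 0.383. Leaving out 1 library moved the median between 0.23 (IL-33 replicate 1) and 0.68 (IL-33 replicate 3). The most abundant were Ndufaf8, with 1361, 1236, 1280 and 449 after IL-33 and 314, 909, 974 and 1077 after PBS, and Ndufaf4, with 1003, 1387, 863 and 126 against 577, 723, 613 and 573. In both genes IL-33 replicates 1 to 3 were above every PBS library and IL-33 replicate 4 was below the other 3. Their log2 fold changes were 0.42 ± 0.61 and 0.01 ± 0.74, and that of Ndufaf4 turned to −0.14 when libraries were scaled on non-mitochondrial genes.

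In complex II, Sdha, the subunit that oxidises succinate, had counts from 2158 to 3803 after IL-33 and from 1544 to 4050 after PBS, and Sdhc, a membrane anchor, from 1319 to 3259 and from 1146 to 2865. The groups overlapped almost fully. Log2 fold changes were 0.15 ± 0.39 and 0.28 ± 0.43, and that of Sdha turned to −0.02 under quantile normalization and to −0.0043 when libraries were scaled on non-mitochondrial genes.

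In complex III, 6 of 8 nuclear genes had a positive log2 fold change and the median was 0.51, beside −0.40 for all tested genes. It was 0.22 without PBS replicate 7, 0.33 without IL-33 replicate 2, and 0.22 over the 7 members averaging at least 1000, beside 0.08 for all genes of that level. The most abundant were Uqcrq, a small subunit by the coenzyme Q pocket (3769 ± 874 after IL-33, 3208 ± 541 after PBS, log2 fold change 0.22 ± 0.32), and Uqcrh, the hinge protein at cytochrome c1 (2844 ± 1136 and 3555 ± 1072, −0.39 ± 0.39). Uqcr10, a small membrane subunit, was named after its values were seen. Its counts were 2438, 1998, 4387 and 4674 after IL-33 and 1224, 1924, 1881 and 1242 after PBS. All IL-33 libraries were above all PBS libraries, and the log2 fold change was 1.04 ± 0.41 (adjusted p = 0.156).

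In complex IV, 8 of the 15 tested nuclear genes had a positive and 7 a negative log2 fold change. The most abundant, Cox8a and Cox6c, small subunits around the catalytic core, had log2 fold changes of 0.10 ± 0.36 and 0.01 ± 0.38. Both turned negative under quantile normalization (−0.13 and −0.19) and under scaling on non-mitochondrial genes (−0.05 and −0.14). The next 3 genes were named after their values were seen.

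Cox7a2, the form of subunit 7a found in most tissues, had counts of 2525, 2788, 2394 and 1096 after IL-33 and 3700, 5046, 3617 and 4994 after PBS. The groups do not overlap, and the log2 fold change was −1.05 ± 0.37 (adjusted p = 0.112, and 0.0476 under quantile normalization). Cox7a2l, which encodes a relative of this subunit, had 84.2, 352, 425 and 16.2 against 994, 659, 780 and 918. All IL-33 libraries were again below all PBS libraries, with a log2 fold change of −2.76 ± 1.00 (adjusted p = 0.123). Cox6a1, the non-muscle form of subunit 6a, had 4828, 4635, 5485 and 5615 against 3545, 3377, 3116 and 3132, the reverse order without overlap (0.64 ± 0.29, adjusted p = 0.221).

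ATP synthase had the highest nuclear levels. Of its 17 tested nuclear genes 9 had a positive and 8 a negative log2 fold change. The median was 0.27, beside −0.40 for all tested genes, and −0.01 without IL-33 replicate 1. Over the members averaging at least 1000 it was also 0.27, beside 0.08 for all genes of that level. Atp5g3 encodes subunit c, which forms the rotor ring in the membrane, and was the most abundant nuclear member. Its counts were 12191, 12024, 14494 and 16143 after IL-33 and 7519, 10634, 6786 and 11156 after PBS. The lowest IL-33 library stood above the highest PBS library, and the log2 fold change was 0.63 ± 0.23 (adjusted p = 0.133). Atp5a1, the alpha subunit of the catalytic head, averaged 7688 ± 1532 and 6217 ± 506, with a log2 fold change of 0.29 ± 0.25 and a 95% interval from −0.25 to 0.82.

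Atp5o, which encodes a stalk subunit, and Atp5mpl, a small membrane subunit, were named after their values were seen. Atp5o had 3594, 1538, 1583 and 1779 after IL-33 and 843, 847, 1148 and 1271 after PBS, without overlap (log2 fold change 0.97 ± 0.46, adjusted p = 0.250). Of the stretches of its end, 22.8% occur in a gene elsewhere (Gm5436). A further 18.1% occur only in the overlapping second row under this symbol, so its level carries this limit. Atp5mpl averaged 5600 ± 1943 and 3017 ± 994 with overlapping groups (0.88 ± 0.36, adjusted p = 0.175).

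The members called by DESeq2 apart from Ndufa9 were minor forms of subunits with few reads in 1 group. Cox7a1, known as the heart and muscle form of subunit 7a, had 0, 0, 491 and 591 after IL-33 and 0.847, 1.70, 0.822 and 0 after PBS. Reads were thus present in number in IL-33 replicates 3 and 4, both from males, and not in replicates 1 and 2, from females. DESeq2 gave an adjusted p of 9.82e-04 and limma 0.410. Atp5g2, another gene for subunit c, had 0, 0, 0.987 and 0.955 after IL-33 and 51.7, 374, 60.8 and 0 after PBS, so the groups overlapped at 0 (adjusted p 0.0105 in DESeq2, 0.252 in limma), and its level is uncertain for its shared end.

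Some subunits have several gene forms. Of the reads for subunit c, Atp5g3 held 95.1 ± 4.56% after IL-33 and 93.4 ± 2.75% after PBS (SD, n = 4 each). This share is uncertain, since the ends of Atp5g1 and Atp5g2 occur elsewhere for 36.0% and 52.6% of their stretches, and that of Atp5g3 for none. Cox6a1 held 95.3 ± 6.02% and 99.1 ± 1.33% of the reads for its pair with Cox6a2. Cox7a2 held 87.0 ± 16.7% of the reads for its pair with Cox7a1 after IL-33, as low as 65.0% in replicate 4, and above 99% in all PBS libraries. Cox8a, Cox7b and Ndufa4 held all reads of their sets, since Cox8b, Cox8c, Cox7b2 and Ndufa4l2 had none.

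The libraries did not contribute alike. In IL-33 replicate 4, 13 of the 88 tested nuclear members were more than 3 on the log2 scale below the PBS mean, against 0 to 5 in the other libraries, and 11 had under 10 reads, against 4 to 7. This library had the fewest genes with 10 reads (7958). It was the lowest of the 8 libraries for 29 nuclear members and the highest for 20. Examples are Ndufs6 at 4.78 and Ndufb11 at 6.69, where the other libraries lay between 1416 and 2763 and between 917 and 2500. Without it the median log2 fold change of the nuclear members moved from −0.19 to 0.03.

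**Figure D4:**
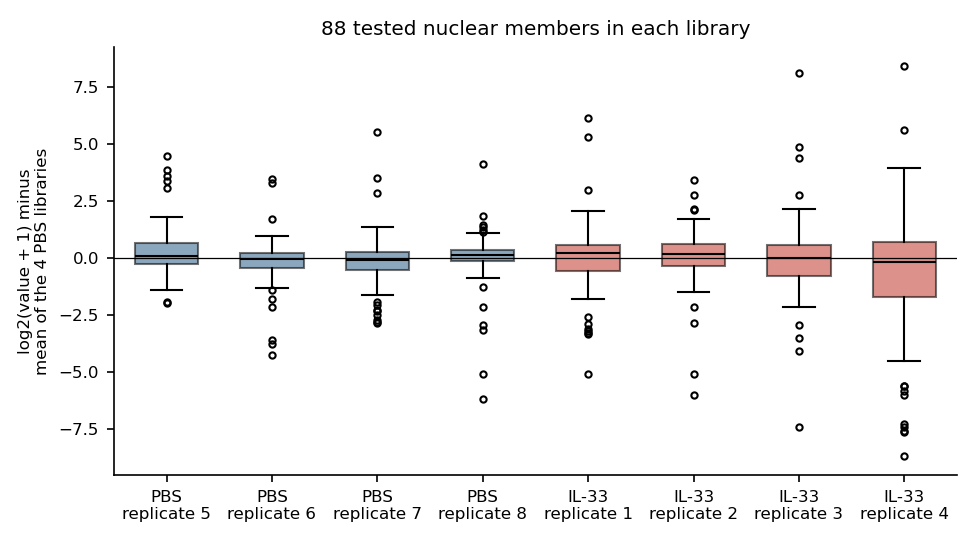
Box plots, for each of the 8 libraries, of log2(value + 1) minus the mean of the PBS libraries over the 88 tested nuclear members, with the median as a line, the quartiles as the box and members beyond the whiskers as circles. The median of IL-33 replicate 4 is −0.15, and 13 of its members lie more than 3 below the PBS mean.

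As a share of all reads, the nuclear members held 1.02, 1.11, 0.957 and 0.847% after IL-33 and 1.12, 0.946, 0.875 and 1.18% after PBS. The group means were 0.983 ± 0.111% and 1.03 ± 0.143%, and the groups overlapped. The mitochondrial members held 2.32, 1.94, 1.75 and 3.27% after IL-33 and 1.90, 1.87, 2.27 and 1.84% after PBS (2.32 ± 0.677% and 1.97 ± 0.201%). IL-33 replicate 4 had the highest mitochondrial and the lowest nuclear share of the 8, so that its ratio of mitochondrial to nuclear reads was 3.86, while the other libraries lay between 1.56 and 2.59.

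By complex, the nuclear genes of complex I held 0.291 ± 0.0642% after IL-33 and 0.370 ± 0.0521% after PBS, those of complex IV 0.162 ± 0.0289% and 0.184 ± 0.0358%, and those of complex V 0.354 ± 0.0347% and 0.319 ± 0.0380%. Complex III held 0.110 ± 0.00730% and 0.0964 ± 0.0219%, and complex II 0.0398 ± 0.00567% and 0.0419 ± 0.00902%. In each complex the groups overlapped. These shares are sums over the members and were not tested.

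**Figure D5:**
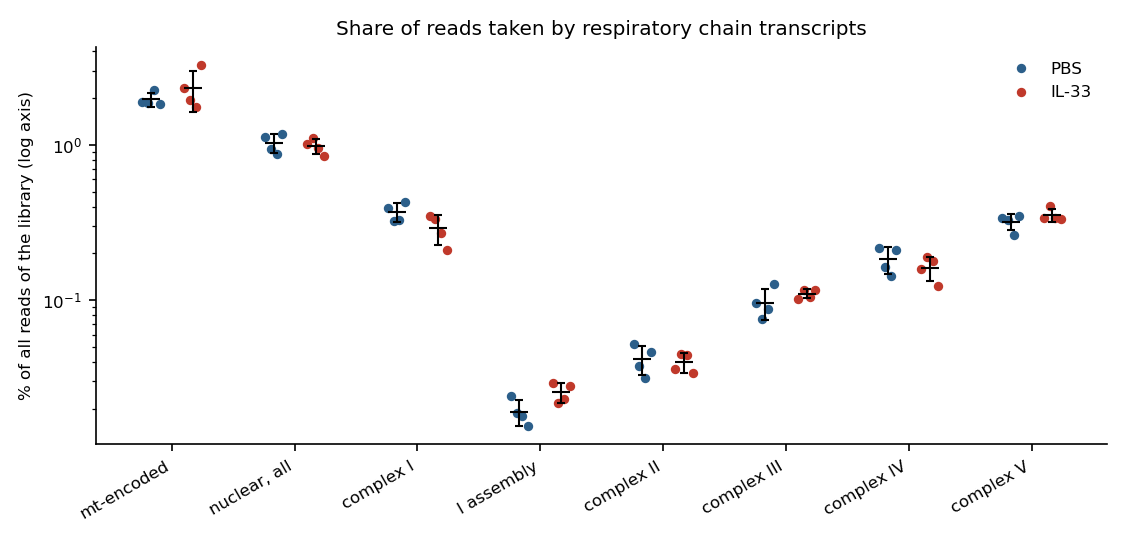
Percentage of each library's reads held by the mitochondrially encoded members, all nuclear members and the nuclear members of each complex, on a log axis, with a point per library (red IL-33, blue PBS) and the group mean and SD in black. IL-33 replicate 4 holds 3.27% mitochondrial and 0.847% nuclear reads.

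The effect of IL-33 was also compared between females and males, with 2 libraries per sex and group. With limma no member was called for a difference, nor was any of the 13877 genes (0%), and edgeR called 0% as well. In limma 4 of the 96 tested members had an unadjusted p under 0.05, beside 5.83% of all genes. They were Ndufa13, mt-Nd2, mt-Cytb and Cox7a1, each with an adjusted p of 0.783. With edgeR 6 members had an unadjusted p under 0.05. The edgeR share of all genes at that level is not given here, so this count is not read as a result about the members. The males after IL-33 were replicates 3 and 4, which had the fewest genes with 10 reads (8948 and 7958), so that sex and this feature of the libraries cannot be told apart within that group.

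Genes around the respiratory chain were read from 14 lists of assembly factors, carriers, coenzyme Q and tricarboxylic acid cycle enzymes, and regulators of mitochondrial RNA and transcription. Of 127 genes listed 120 were tested, 1 rose and 2 fell, or 2.5% called against 5.85% of all tested genes. The called genes are described singly, not as a result about their lists. Slc25a3 (chr10:91116574-91124059), the carrier that brings phosphate into the matrix for ATP synthase, rose. Its counts were 12315, 12010, 12526 and 23395 after IL-33 and 5761, 9116, 6197 and 5036 after PBS, without overlap (log2 fold change 1.18 ± 0.27, adjusted p = 0.0107). The log2 fold change stayed between 0.95 and 1.35 when 1 library was left out. The call was lost without PBS replicate 8 (1.07, adjusted p = 0.0525), without IL-33 replicates 3 and 4 (0.93, adjusted p = 0.0706), with no variance trend (0.298) and at a threshold of 0.01.

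Idh2 (chr7:80094846-80115392), the mitochondrial NADP-dependent isocitrate dehydrogenase, fell. Its counts were 356, 131, 294 and 6.69 after IL-33 and 1130, 3059, 1856 and 1410 after PBS. Every IL-33 library was below every PBS library, with a log2 fold change of −4.09 ± 1.02 (adjusted p = 0.0201). Leaving out PBS replicates 5, 6, 7 or 8 gave log2 fold changes of −4.30, −3.82, −4.06 and −4.19 with adjusted p values of 0.0545, 0.112, 0.0706 and 0.0666. The call was also lost with no filter on low values (0.0840), with no variance trend (0.156) and at a threshold of 0.01.

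Nrip1 (chr16:76287400-76373827), a nuclear receptor corepressor known to hold down oxidative genes in fat and muscle, fell from 9488 ± 1100 to 2256 ± 1444. Its 4 IL-33 libraries (2574, 730, 4105 and 1616) were all below the PBS libraries (8779, 9732, 10938 and 8504), and the log2 fold change was −2.33 ± 0.41 (adjusted p = 0.0013). Of the alternatives run, the fit with no variance trend alone lost this call (adjusted p = 0.120).

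In the other lists no gene was called. They were the assembly factors of complexes I (10 tested), II (4), III (6), IV (19) and V (5), coenzyme Q synthesis (12), mitochondrial DNA transcription and replication (12), mitochondrial RNA stability and processing (15), cytochrome c and the Ndufa4 relative AA467197. Cycs, cytochrome c itself, had 711, 439, 323 and 856 after IL-33 and 143, 0.852, 373 and 337 after PBS (log2 fold change 2.83 ± 1.42, adjusted p = 0.286). Without PBS replicate 6, which had 0.852, the log2 fold change was 1.05. AA467197 had 45.7, 0, 77.0 and 0 after IL-33 and none after PBS (adjusted p = 0.403). Cox4i2, Ppargc1a, Sco2 and Pet117 had no reads in any library.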

How the data were processed

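Per the labels, libraries were 3′ QuantSeq FWD preparations of polyA RNA from sorted microglia. The authors deposited a table of normalised read counts, a signal per gene and library. Whole reads were recovered from it: 100% of nonzero entries fell within 0.01 read of a whole number, which gave the depth. Per the submitters' processing notes, the builds were mm10 and GRCm38, and the tools, listed without roles, included DESeq2 1.24.0, HTSeq 0.9.0, STAR 2.5.4b and FastQC. For strand use, multi-mapping and duplicates, the handling is not given in the sources used here. Reads are not independent molecules, so the 3-count limit covers counting error alone. All columns belonged to the 8 libraries.

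Groups followed the labels. Genes with a mean of at least 10 were tested with limma 3.58.1 (R 4.3.3) on log2(value + 1), with a variance trend and group as the sole term, two-sided, Benjamini-Hochberg adjusted over 13877 genes, and called under 0.05. The added 1 understates changes of low genes. edgeR 4.0.16 (quasi-likelihood) and DESeq2 1.42.0 were run on the recovered reads as alternatives, beside other pseudocounts, filters, scalings and omitted libraries. The steps were tested on simulated data. Named by rule were all mitochondrial members, called genes, the 2 most abundant nuclear members per complex, and AA467197 and Cycs (the rule also names Cox4i1, not analysed here); others were named after their values were seen. The members and lists were chosen with earlier results of these data known. Identifiers of all 109 members matched GENCODE M21, whose transcripts gave the end sequences; the genome itself was not searched. Means are given ± SD, fold changes ± SE.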

Additional observations from a re-analysis of the deposited data

Results flagged for a closer look

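Among 76 groups of 4 libraries examined (the named genes and read shares), 10 held a library whose gap to the nearest other exceeded Dixon's 95% critical value. Chance gives about 1 in 20 for independent, normally distributed values. Here the values were counts and shares without a log, and some genes were named after their values were seen. The 10 are therefore not read as an excess over chance. IL-33 replicate 4 was the outlying library in 4 of the 10. It was the highest for mt-Nd1 (165679, others 59760 to 67411), mt-Cytb (216994, others 71016 to 92364) and Slc25a3 (23395, others 12010 to 12526), and the lowest for Ndufaf8 (449, others 1236 to 1361).

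After IL-33, replicate 1 stood above the rest for Atp5o (3594, others 1538 to 1779) and replicate 2 for Ndufb6 (772, others 12.4 to 86.2). After PBS, replicate 5 stood above the rest for mt-Nd3 (1867, others 61.6 to 135) and replicate 6 for Atp5g2 (374, others 0 to 60.8). PBS replicate 7 was the highest for mt-Nd4 (89610, others 49945 to 52628) and for the share of reads from the mitochondrial members (2.27%, others 1.84 to 1.90%).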

How the results depend on the processing

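No paired analysis was possible because the groups share no replicate numbers (1 to 4 and 5 to 8). Nuclear members called higher numbered 1 with DESeq2 and 0 otherwise. Nuclear members called lower numbered 2 with DESeq2 (Ndufa9, Atp5g2), 2 under quantile normalization (Ndufa9, Cox7a2), 1 with a pseudocount of 5, 1 without IL-33 replicates 3 and 4, and 0 to 1 when 1 library was left out, Ndufa9 in each case. Mitochondrial members called higher numbered 1 under quantile normalization and 0 to 1 when 1 library was left out (mt-Cytb, without IL-33 replicate 1). DESeq2 called 12.1% of all tested genes. Shares of all tested genes called under the other settings are not given here, so these counts are not read as a result about the members. The median log2 fold change of nuclear members ran from −0.19 to 0.027 when 1 library was left out and was 0.16 without IL-33 replicates 3 and 4, and that of mitochondrial members was −0.15 under quantile normalization and 0.039 to 0.17 when 1 library was left out. The median of all tested genes, −0.40, was −0.12 under quantile normalization and −0.54 when libraries were scaled on non-mitochondrial genes, where the nuclear and mitochondrial medians were −0.34 and −0.036. The cause of these moves was not tested.

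For 36 named genes, 698 of 752 alternative values kept direction and side of the threshold, 10 passed it, 12 lost it and 32 changed sign. Sign changes under quantile normalization gave −0.19 for Cox6c, −0.021 for Sdha, −0.13 for Cox8a and −0.018 for mt-Nd6. Scaling on non-mitochondrial genes gave −0.14 for Cox6c, −0.0043 for Sdha, −0.14 for Ndufaf4 and −0.050 for Cox8a. Cox6c was −0.059 with edgeR and −0.062 with DESeq2. Without IL-33 replicates 3 and 4, Sdhc was −0.071, Uqcrh 0.013, mt-Nd2 0.21, mt-Nd5 0.093 and mt-Nd6 −0.15. Leaving out 1 library gave −0.23 to 0.31 for Cox6c, −0.11 to 0.35 for Sdha, −0.37 to 0.78 for Ndufaf4, −0.072 to 0.54 for Cox8a, −0.41 to 0.13 for mt-Co1, −0.13 to 0.045 for mt-Nd5 and −0.11 to 0.64 for mt-Nd6. It also moved by over 1.5 times, without a sign change, Ndufaf8 (0.01 to 0.80), Ndufb5 (0.25 to 0.71), Sdhc (0.03 to 0.55), Uqcrh (−0.60 to −0.05), Uqcrq (0.11 to 0.37), Atp5a1 (0.20 to 0.44), Cox7a2l (−3.37 to −1.82), Ndufb6 (−3.79 to −1.84), Cox7a1 (2.19 to 5.25), mt-Nd2 (−0.62 to −0.09) and mt-Nd3 (−3.62 to −1.99). With 4 libraries per group and a median within-group SD of 0.80 (log2) for nuclear members, changes smaller than their intervals were not detectable.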

Other observations

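Some gene lists around the respiratory chain had summed levels that did not overlap between groups although few or none of their genes were called. The 12 coenzyme Q synthesis genes summed to 3147 to 6314 after IL-33 and 1926 to 2290 after PBS, and the 4 complex II assembly factors to 2235 to 2799 and 741 to 1234, of which Sdhaf2 averaged 1181 and 220 (log2 fold change 3.02, limma adjusted p = 0.0723). The 7 genes for adenine nucleotide, phosphate and related carriers summed to 24280 to 34908 and 16956 to 22294, with Slc25a3 the sole gene called. The sums of all the other lists overlapped, such as those of the tricarboxylic acid cycle (15467 to 27727 and 15353 to 18845). Among single genes, the groups did not overlap for 13.7% of all tested genes and 29.5% of those with a mean of at least 1000. The lists without overlap were picked after the values were seen, and no sum was tested.

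Mitochondrial ribosomal RNA held 1.32, 2.47, 2.43 and 0.921% of reads after IL-33 and 2.84, 2.55, 2.27 and 1.98% after PBS. All genes of the mitochondrial genome together held 3.66 to 4.75%. IL-33 replicates 1 and 4, with the lowest ribosomal shares, had the highest shares from mitochondrial protein-coding genes, 2.32 and 3.27%.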
